A study of Homo sapiens with 4 samples.

Results

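Expression of 10 genes that encode messenger RNA (mRNA) decay factors and antiproliferative BTG/TOB proteins was compared by RNA sequencing between lines of A549, a human lung adenocarcinoma cell. The genes were taken by symbol from the 28278 rows of the gene count table: ZFP36, ZFP36L1, ZFP36L2, ZC3H12A, ZC3H12C, BTG1, BTG2, BTG3, TOB1 and TOB2. All 10 passed the filter on low counts and stood among the 17271 genes tested. Stable lines had been made by lentiviral infection with either a control construct (genotype WT in the labels, 2 libraries) or a CBX7 expression construct (genotype CBX7 overexpression, 2 libraries). Both groups are thus virus-infected A549 lines in serum-containing medium, and no uninfected cells were analysed here. CBX7 is a chromobox subunit of Polycomb repressive complex 1, and the series title concerns its repression of SOCS3.

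The members act at the end of an mRNA's life. ZFP36 (tristetraprolin), ZFP36L1 and ZFP36L2 carry paired CCCH zinc fingers that bind AU-rich elements in 3' untranslated regions (UTRs), and they recruit the CCR4-NOT complex, which shortens the poly(A) tail. ZC3H12A (Regnase-1, or MCPIP1) and its relative ZC3H12C are endoribonucleases; Regnase-1 cleaves stem-loops in the mRNAs of inflammatory genes. The BTG and TOB proteins share an N-terminal domain that binds the CNOT7 and CNOT8 deadenylases of CCR4-NOT, and TOB1 and TOB2 also bind the poly(A)-binding protein PABPC1. Many of these genes belong to rapid responses: ZFP36 and BTG2 are early genes induced by growth factors, and ZC3H12A is induced by NF-kB.

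The 3 ZFP36 family mRNAs themselves hold the motif that their proteins bind. In 1 transcript per gene of GENCODE release 29 (GRCh38), the 9-base AU-rich element TTATTTATT was found once in the 3' UTR of each of these 3 genes and in none of the other 7 members. It is shown in capitals within its flanks, on the transcript strand and in DNA letters, because the family is described by this motif in the results that follow.
ZFP36: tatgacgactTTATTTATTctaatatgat
ZFP36L1: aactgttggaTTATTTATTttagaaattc
ZFP36L2: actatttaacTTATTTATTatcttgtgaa
The sites begin at base 507 of 713 in the 3' UTR of ZFP36, base 1438 of 1871 in ZFP36L1 and base 853 of 1917 in ZFP36L2. Among the 14368 tested genes with a 3' UTR in that annotation, 8.34% held this motif. The match is in letters only and does not show binding. A site present only in another transcript would be missed. For ZC3H12C the 3' UTR searched was 197 bases, while its merged exons span 9.719 kilobases.

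Promoter windows of 300 bases (250 before to 50 after a transcript start) were matched by symbol from RefSeq GRCh38.p14 for 9 of the 10 members, as 12 windows; ZFP36L2 had none. Those of the 4 members with the smallest p are shown, because these genes were lower together. Capitals mark TATAAA and TGACG, the core of the cAMP response element, each searched on both strands; the ZFP36 window holds neither.
BTG2 promoter (chr1:203305269-203305568, plus strand): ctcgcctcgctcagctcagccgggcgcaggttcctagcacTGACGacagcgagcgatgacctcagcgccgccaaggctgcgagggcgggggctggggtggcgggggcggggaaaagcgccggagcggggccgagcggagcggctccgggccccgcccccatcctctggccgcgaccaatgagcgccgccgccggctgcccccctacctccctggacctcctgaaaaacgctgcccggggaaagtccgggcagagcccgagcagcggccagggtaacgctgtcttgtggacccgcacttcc
ZFP36 promoter (chr19:39406597-39406896, plus strand): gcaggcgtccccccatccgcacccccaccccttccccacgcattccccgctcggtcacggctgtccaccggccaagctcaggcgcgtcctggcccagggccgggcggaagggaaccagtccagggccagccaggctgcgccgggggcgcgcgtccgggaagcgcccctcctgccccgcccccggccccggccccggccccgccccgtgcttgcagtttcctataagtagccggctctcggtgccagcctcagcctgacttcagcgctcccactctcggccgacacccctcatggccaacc
ZC3H12A promoter (chr1:37474330-37474629, plus strand): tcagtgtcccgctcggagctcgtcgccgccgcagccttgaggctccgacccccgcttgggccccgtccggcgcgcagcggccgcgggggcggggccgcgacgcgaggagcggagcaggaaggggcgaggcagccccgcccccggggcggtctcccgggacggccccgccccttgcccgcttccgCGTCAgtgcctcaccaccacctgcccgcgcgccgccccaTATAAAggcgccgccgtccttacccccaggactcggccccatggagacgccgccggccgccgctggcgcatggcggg
ZFP36L1 promoter, inner start (chr14:68793367-68793666, minus strand): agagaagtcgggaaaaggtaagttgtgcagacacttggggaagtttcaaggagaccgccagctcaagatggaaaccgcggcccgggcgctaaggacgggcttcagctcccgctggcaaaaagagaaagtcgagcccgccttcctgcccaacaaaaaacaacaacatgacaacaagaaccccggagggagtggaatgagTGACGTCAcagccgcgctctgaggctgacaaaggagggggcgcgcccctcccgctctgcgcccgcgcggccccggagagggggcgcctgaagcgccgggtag
ZC3H12A had TATAAA 27 bases upstream of its start and TGACG 66 bases upstream. In ZFP36L1, a full TGACGTCA, which holds TGACG on both strands, lay 52 bases upstream of the inner start; 1.85% of all 35116 windows of this length held it. TGACG was found in 7 of the 12 member windows (BTG1, BTG2, TOB1, ZC3H12A, ZC3H12C and both of ZFP36L1), TOB1 among them although it was not called, and in 24.6% of all windows. TATAAA was found in 2 of the 12 (BTG1 and ZC3H12A) and in 11.5% of all windows. A CArG box (serum response element) was found in 0 of the 12 windows and in 1.29% of all windows, and TGANTCA (the AP-1 site) in 0 and in 7.71%. A NF-kB motif was found in ZC3H12C, 232 bases upstream of its outer start, and in 11.3% of all windows.

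The libraries held 69877585 to 90765502 counts, and between 19678 and 20379 genes had a count above 0. CBX7 itself rose from 8.37 ± 0.521 to 18.1 ± 1.31 CPM (counts scaled to a common library size with TMM factors; mean ± SD, n = 2 libraries per group, as throughout). The cells had high levels of the epithelial keratins KRT8 (6903 ± 110 CPM in the controls) and KRT18 (4700 ± 4.78 CPM) and of the oxidoreductase NQO1. KRT19, EPCAM and the surfactant genes SFTPA1, SFTPA2, SFTPB, SFTPC and SFTPD, in contrast, did not exceed 2 CPM in any group mean. With ABCA3, LPCAT1 and NKX2-1, the alveolar markers (8 listed) summed to 111 and 144 CPM in the controls and 146 and 144 CPM with CBX7. ABCA3 and NKX2-1 were called higher (log2 fold changes of 0.38 and 1.61), but neither call held without each library in turn. LPCAT1 was not called (-0.17). Fibroblast markers (8 listed) summed to 5.71 to 8.91 CPM over the 4 libraries. Endothelial markers (5 listed) summed to 1.61 and 0.967 CPM in the controls and 2.98 and 3.84 CPM with CBX7, and the cadherin CDH5 among them rose (0.866 ± 0.499 to 2.90 ± 0.300 CPM, adjusted p = 0.00868). Leukocyte markers (8 listed) summed to 166 and 171 CPM in the controls and 27.7 and 27.1 CPM with CBX7. That sum was mostly CD68, a lysosomal protein also made outside leukocytes (161 ± 4.84 and 23.6 ± 0.0373 CPM). The integrin ITGAM also fell (5.36 ± 1.09 to 0.821 ± 0.00141 CPM), while the monocyte marker CD14 rose (1.31 ± 0.0772 to 2.80 ± 0.403 CPM), a call lost without any 1 of the 4 libraries (adjusted p of 0.0521 to 0.208). The leukocyte marker PTPRC had 0 to 9 counts per library and CD3E and MS4A1 had 0 counts in all 4. The part of such markers in the members' changes was not tested. Whether replicates were separate cultures is not stated, so the variation between these 4 samples may be technical. Each p rests on that variation, whose size the fit estimated partly from the other tested genes.

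Of the 10 members, 8 fell with CBX7 overexpression, none rose and 2 were not called. These members, and every gene list below, were chosen with earlier results of these data known. The threshold for a call was an adjusted p below 0.05 in edgeR's quasi-likelihood test, with Benjamini-Hochberg adjustment over all tested genes, which is the source of every adjusted p given here. The background was 13.9% of all tested genes called lower and 10.5% called higher (24.4% in all). Scaled by library totals instead of TMM, that balance turned, from 2399 genes lower and 1809 higher to 2033 lower and 2486 higher, while 8 members were lower under either scaling. Among the 6562 tested genes with a mean CPM in the members' range (19.98 to 139), 18.5% were lower and 14.1% higher. A log2 fold change of -1 or below was found in 5 members (BTG2, ZFP36, ZC3H12A, ZC3H12C and ZFP36L1), against 5.36% of tested genes. No member was higher at an unadjusted p under 0.05 either, nor with DESeq2 or limma-voom. The median log2 fold change was -0.87 for the members and -0.00015 for all tested genes. In 9 members both CBX7 libraries lay below both controls, an arrangement seen in 31.9% of tested genes (the reverse was seen in 30.8%); TOB1 overlapped. In bulk RNA, fewer cells of a kind and less RNA per cell cannot be told apart.

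**Figure D1:**
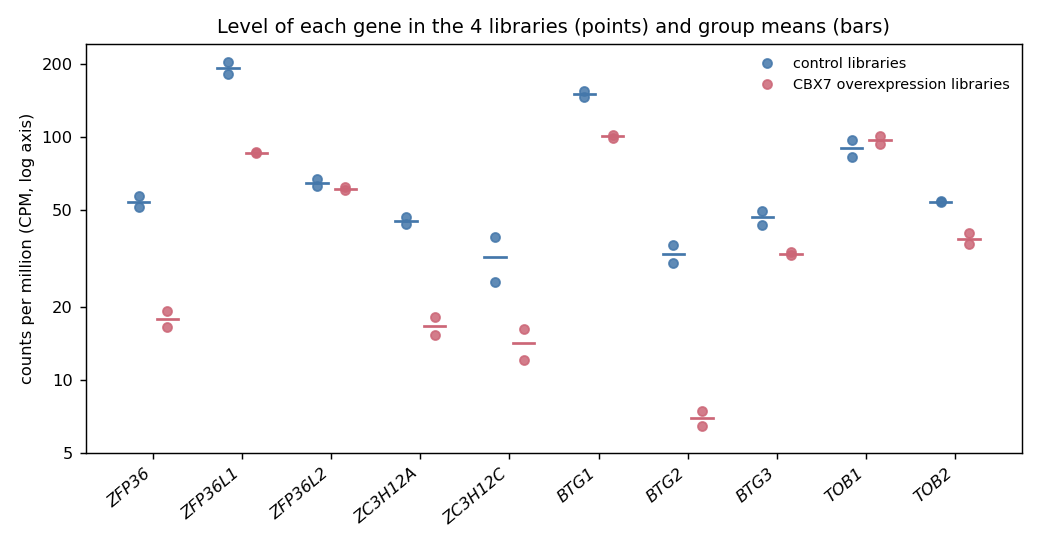
Level of each member in the 4 libraries, in CPM on a log axis; points are libraries and short bars group means (n = 2 per group). BTG2 shows the widest gap between groups (33.0 against 6.95 CPM), while the points of TOB1 overlap and those of ZFP36L2 lie close together.

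Within the ZFP36 family, ZFP36 and ZFP36L1 fell and ZFP36L2 was not called. ZFP36, which binds the AU-rich elements of TNF and other cytokine mRNAs (chromosome 19, 39406847 to 39409407, RefSeq GRCh38.p14), was at 57.0 and 51.3 CPM in the controls and 16.5 and 19.3 CPM with CBX7. The groups did not overlap, and both replicate gaps were small beside the difference. The change was 3.03-fold down (log2 fold change -1.60, SE 0.129, adjusted p = 6.31e-07). ZFP36L1, the family member with the highest count (chromosome 14, 68787655 to 68796243), was at 203 and 182 CPM in the controls and 85.5 and 86.2 CPM with CBX7. Its CBX7 libraries nearly coincided, and the fall was 2.24-fold (log2 fold change -1.16, SE 0.102, adjusted p = 1.61e-06). ZFP36L2 (chromosome 2, 43222402 to 43226606) was at 67.1 and 62.5 CPM in the controls and 62.2 and 60.2 CPM with CBX7. Both CBX7 values lay just below the lower control, the log2 fold change was -0.082 (adjusted p = 0.647), and its 95% confidence interval of -0.31 to 0.15 lay wholly above the intervals of ZFP36 (-1.88 to -1.32) and ZFP36L1 (-1.38 to -0.94).

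Both Regnase genes fell. ZC3H12A (chromosome 1, 37474580 to 37484377) was at 43.6 and 46.7 CPM in the controls and 18.1 and 15.4 CPM with CBX7, a 2.70-fold fall (log2 fold change -1.43, SE 0.129, adjusted p = 2.06e-06). Its controls agreed closely and the groups were well apart. ZC3H12C (chromosome 11, 110093392 to 110171841) was at 38.8 and 25.3 CPM in the controls and 16.2 and 12.1 CPM with CBX7, and had the largest standard error of the members (log2 fold change -1.18, SE 0.213, adjusted p = 0.00301). Control library 1 stood above control library 2, yet neither reached down to the CBX7 libraries. The 2 intervals, -1.71 to -1.15 and -1.66 to -0.70, overlapped.

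All 3 BTG genes fell, by unequal amounts. BTG2 (chromosome 1, 203305519 to 203309602), a growth-arrest gene and deadenylase cofactor, was at 35.8 and 30.3 CPM in the controls and 7.44 and 6.46 CPM with CBX7. That was the largest fall of the 10 members, 4.75-fold (log2 fold change -2.25, SE 0.153, adjusted p = 9.96e-08), and it lay at the 3.56th percentile of the changes of all tested genes. BTG1 (chromosome 12, 92140278 to 92145846), which is linked to quiescence in lymphocytes and other cells, was at 154 and 146 CPM in the controls and 99.0 and 102 CPM with CBX7. Replicates agreed closely in both groups, and the 1.49-fold fall was called (log2 fold change -0.58, SE 0.0998, adjusted p = 0.000807). BTG3 (chromosome 21, 17593653 to 17612901), an antiproliferative gene, was at 49.6 and 43.6 CPM in the controls and 32.8 and 33.4 CPM with CBX7. The log2 fold change was -0.49 (SE 0.119, adjusted p = 0.00805), and the call was lost without CBX7 library 1 (adjusted p = 0.0688). The interval of BTG2 (-2.58 to -1.92) lay wholly below those of BTG1 (-0.79 to -0.36) and BTG3 (-0.75 to -0.24).

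Of the TOB genes, TOB2 fell and TOB1 was not called. TOB2 (chromosome 22, 41433494 to 41446801) was at 53.9 and 54.2 CPM in the controls and 36.2 and 40.02 CPM with CBX7, a 1.42-fold fall (log2 fold change -0.50, SE 0.113, adjusted p = 0.00527). The groups did not overlap, but the call was lost without CBX7 library 1 (adjusted p = 0.0894). TOB1 (chromosome 17, 50862223 to 50867978), an inhibitor of proliferation that also binds SMAD proteins, was at 96.9 and 82.9 CPM in the controls and 93.5 and 100.4 CPM with CBX7. The groups overlapped (log2 fold change 0.11, adjusted p = 0.548), with an interval of -0.13 to 0.35 that did not meet the interval of TOB2 (-0.75 to -0.26).

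**Figure D2:**
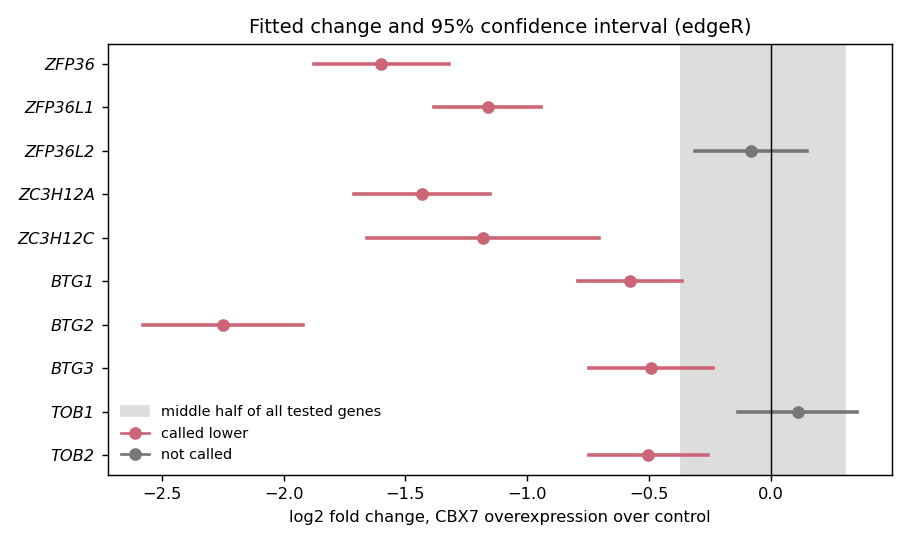
Fitted log2 fold change of each member (points) with its 95% confidence interval (lines); red marks genes called lower, grey those not called, and the shaded band holds the middle 50% of all tested genes. The 5 members with a log2 fold change of -1 or below lie clear of the band, whereas ZFP36L2 and TOB1 lie inside it.

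Divided by exon length, the order of the members changed between the lines. In the controls, CPM per kilobase of merged exons was highest for ZFP36L1 (37.3 ± 2.86) and TOB1 (35.7 ± 3.93), whose libraries overlapped. BTG1 (30.9 ± 1.17), ZFP36 (26.9 ± 2.03), BTG3 (20.2 ± 1.84), ZFP36L2 (17.5 ± 0.894) and ZC3H12A (14.5 ± 0.692) followed, each apart from its neighbours. BTG2 (11.98 ± 1.41) and TOB2 (11.8 ± 0.0486) overlapped, and ZC3H12C was lowest (3.30 ± 0.984). With CBX7, TOB1 stood first at 38.5 ± 1.95 CPM per kilobase and BTG1 second at 20.7 ± 0.385. ZFP36L1 (16.6 ± 0.0960) and ZFP36L2 (16.6 ± 0.387) could no longer be told apart. BTG3 was at 14.4 ± 0.205, ZFP36 (8.89 ± 0.981) overlapped TOB2 (8.35 ± 0.593), and ZC3H12A (5.36 ± 0.628), BTG2 (2.52 ± 0.252) and ZC3H12C (1.46 ± 0.302) came last. These levels assume the GENCODE exon models, which may not be those used for the deposited counts.

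Shares within a library do not depend on scaling between libraries. ZFP36L2 made up 20.5% and 21.1% of the ZFP36 family's counts in the controls and 37.9% and 36.3% with CBX7. ZFP36 went from 17.4% and 17.3% to 10.0% and 11.6%, and ZFP36L1 from 62.0% and 61.5% to 52.1% and 52.0%. The family's summed level was 311 ± 22.1 CPM in the controls and 165 ± 1.04 CPM with CBX7. Among the BTG genes, BTG2 made up 15.0% and 13.8% of counts in the controls and 5.35% and 4.57% with CBX7. TOB1 made up 64.3% and 60.5% of the TOB counts in the controls and 72.1% and 71.5% with CBX7, and the pair's summed level overlapped between groups (144 ± 9.69 and 135 ± 7.62 CPM). The split between ZC3H12A and ZC3H12C overlapped between groups, ZC3H12A holding 52.9% and 64.9% in the controls and 52.8% and 56.0% with CBX7. In an exact two-sided permutation test, 2 libraries against 2 cannot give a p below 0.333, which is the p of each share of the ZFP36, BTG and TOB genes; for the ZC3H12 pair it was 0.667.

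**Figure D3:**
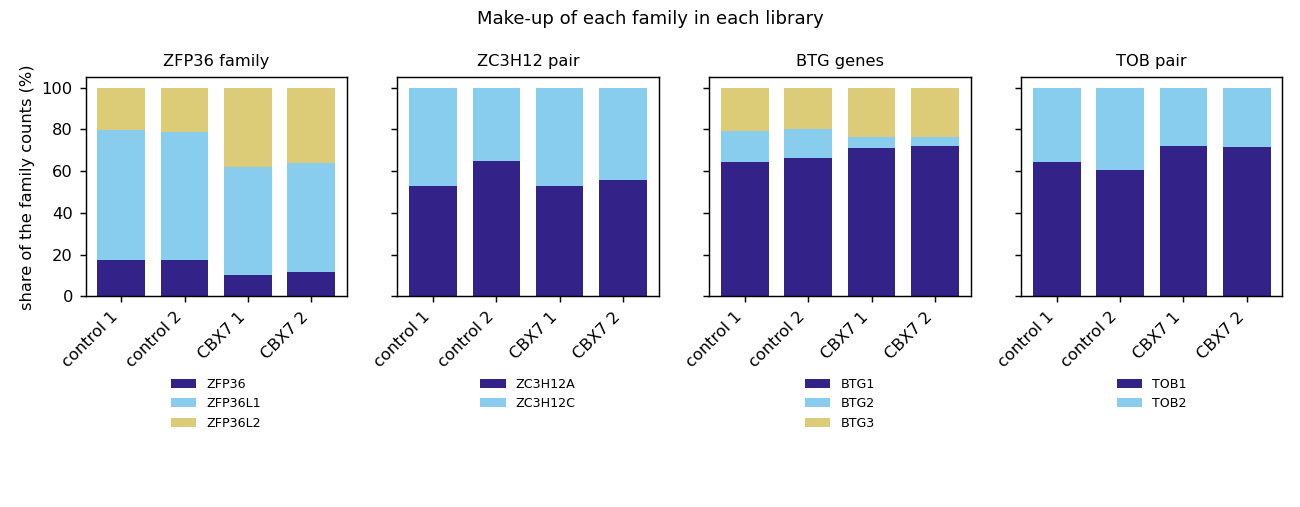
Make-up of each family, as the percentage of its counts from each gene, in each of the 4 libraries. The ZFP36L2 segment widens from 20.5% and 21.1% in the controls to 37.9% and 36.3% with CBX7, and the BTG2 segment narrows.

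Rows named after members were the antisense genes TOB1-AS1 (0.526 ± 0.0602 and 0.504 ± 0.164 CPM in control and CBX7 libraries) and BTG3-AS1 (0.923 ± 0.435 and 0.680 ± 0.0410 CPM) and the pseudogene TOB2P1 (4.16 ± 1.23 and 3.48 ± 0.970 CPM), with adjusted p of 0.965, 0.628 and 0.606. Strandedness is not given in the sources used here, so reads of an antisense gene and its partner cannot be told apart. Of 21 nearest or overlapping tested protein-coding genes, 6 were called (5 lower and 1 higher), where 24.4% of all tested genes were. Genes that were not tested were passed over, so some neighbours lay far off, such as MRPS15 at 1010196 bases from ZC3H12A. MED29 and PLEKHG2 beside ZFP36 (log2 fold changes of 0.18 and -0.20), RAD51B and ACTN1 beside ZFP36L1 (0.088 and -0.19), and MRPS15 and MEAF6 beside ZC3H12A (0.18 and -0.24) were not called. The helicase gene DDX10, 1152465 bases from ZC3H12C, fell (-0.50, adjusted p = 0.00375), and RDX, at 3081 bases, was not called (0.29). BTG2 lay between ADORA1, which rose from 0.323 ± 0.145 to 1.34 ± 0.334 CPM, and ATP2B4 (log2 fold change -0.16, not called). Beside TOB1, which was not called, SPAG9 fell with a log2 fold change of -0.66, and beside TOB2 the PAR-domain factor TEF fell with -0.97. CXADR, whose RefSeq span overlaps that of BTG3, was at 22.5 ± 2.47 and 25.1 ± 1.16 CPM (adjusted p = 0.451). USP25, 1713589 bases from BTG3, fell with a log2 fold change of -0.44 (adjusted p = 0.00885), and C21orf91 on the other side was not called (-0.43). PLEKHG7, 557143 bases from BTG1, fell from 0.445 ± 0.0547 to 0.0222 ± 0.0314 CPM (adjusted p = 0.0371), and LUM on the other side was not called.

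Over the 4 libraries, the 3 genes closest in pattern to BTG2 were KLF10, a TGF-beta-inducible early gene (331 ± 49.6 to 71.1 ± 4.59 CPM), BTN3A1, a butyrophilin (53.4 ± 5.00 to 11.0 ± 1.32 CPM), and SERPINB9, an inhibitor of granzyme B (54.3 ± 7.10 to 11.9 ± 1.93 CPM). Those closest to ZFP36 were TMEM62, the GABA receptor subunit GABRE and the membrane mucin MUC1, with log2 fold changes of -1.67, -1.55 and -1.75. Likeness was the Euclidean distance of log2 CPM less its mean, 0.074 to 0.136 for these 6 genes, among 11920 candidates. With 4 libraries in 2 groups it says little more than that the changes were of similar size.

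Of 12 subunits of CCR4-NOT, the complex that ZFP36, BTG and TOB proteins bind or recruit, 3 were lower, none higher and 9 not called. The median log2 fold change was -0.14. Of all tested genes, 13.9% were lower, and 24.4% were called in either direction. CNOT4, a ubiquitin ligase subunit, fell with a log2 fold change of -0.61 (30.2 ± 4.66 CPM in the controls, 19.8 ± 0.400 CPM with CBX7, adjusted p = 0.00544). CNOT6, a catalytic deadenylase, and CNOT2, a scaffold subunit, fell by less (log2 fold changes of -0.42 and -0.32, adjusted p of 0.0417 and 0.0496). Both calls were lost when a library was left out: CNOT6 without control library 1 or CBX7 library 2 (adjusted p of 0.290 and 0.366), and CNOT2 without any 1 of the 4 (0.0579 to 0.345). CNOT7 and CNOT8, the deadenylases that BTG and TOB proteins bind, were at 116 ± 4.68 and 119 ± 1.89 CPM and at 56.3 ± 1.46 and 57.7 ± 2.46 CPM (adjusted p of 0.839 and 0.866). These 2 genes were named after their values were seen. Among 12 other deadenylases and poly(A)-binding proteins, 1 gene was called, where 24.4% of all tested genes were. This was NOCT (nocturnin), an early-response gene of the deadenylase-like family. Its level was 49.6 ± 6.30 CPM in the controls and 7.72 ± 1.24 CPM with CBX7, a fall with log2 fold change -2.68 (adjusted p = 1.30e-08), and the list median was -0.085.

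Decapping and 5' decay genes moved both ways: of 20 tested, 7 were lower, 1 higher and 12 not called (median log2 fold change -0.19). Over all tested genes, 13.9% were lower and 10.5% higher. PATL1, a decapping scaffold, fell from 201 ± 10.1 to 95.9 ± 6.34 CPM, DCP1A, a decapping activator, from 69.5 ± 7.57 to 29.8 ± 2.97 CPM, and the exonuclease XRN1 from 69.1 ± 14.6 to 29.7 ± 4.70 CPM. Their adjusted p were 3.58e-06, 7.06e-06 and 9.61e-05. These 3 calls held without each library in turn. DCP1B (log2 fold change -0.87, adjusted p = 0.00406) lost its call without CBX7 library 1 (0.0531), and the scavenger decapping enzyme DCPS, the 1 gene that rose (0.36, adjusted p = 0.0429), lost it without any 1 of the 4 (0.0732 to 0.366). The number lower was 4 without CBX7 library 1 or CBX7 library 2.

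Of 17 tested exosome and Ski complex genes, which degrade RNA from the 3' end, 0 were called by edgeR. At an unadjusted p under 0.05, 3 were higher and 2 lower, and DESeq2 called 1 (lower) and limma-voom 0. The Ski subunit TTC37 and the nuclease DIS3L had the highest counts of the list, at 121 ± 11.2 and 127 ± 4.87 CPM and at 83.6 ± 1.65 and 91.9 ± 4.05 CPM in control and CBX7 libraries. Of 10 nonsense-mediated decay genes, 2 were lower, none higher and 8 not called (median log2 fold change -0.30), where 13.9% of all tested genes were lower. UPF3B, an exon junction adaptor, fell from 51.6 ± 3.34 to 39.4 ± 1.81 CPM (adjusted p = 0.0233). Its call was lost without control library 1, CBX7 library 1 or CBX7 library 2 (0.0904, 0.0904 and 0.213), and the number lower was 4 without control library 2. UPF1, the helicase with which Regnase-1 works, was at 94.2 ± 14.1 and 95.9 ± 8.26 CPM (adjusted p = 0.912; named after its values were seen).

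Among 21 other RNA-binding regulators of mRNA stability, 8 were lower, none higher and 13 not called (median log2 fold change -0.22). The share lower among all tested genes was 13.9%. CPEB2, a cytoplasmic polyadenylation factor, fell from 136 ± 23.7 to 71.1 ± 1.86 CPM, and RC3H1 (Roquin-1), which recognises stem-loops that Regnase-1 also cleaves, from 39.4 ± 2.17 to 23.5 ± 1.94 CPM. Their adjusted p were 8.83e-05 and 0.000576. IGF2BP2, an mRNA-stabilising protein, and MEX3C, a ubiquitin ligase that binds RNA, fell with log2 fold changes of -0.71 and -0.55. These 4 calls held without each library in turn, and the other 4 did not. The number lower was 5 without control library 1 or CBX7 library 1 and 4 without CBX7 library 2. Of 6 relatives of the members, 5 were tested. Of these, 2 were lower, none higher and 3 not called, where 13.9% of all tested genes were lower. N4BP1 shares a PIN-type nuclease domain with Regnase-1 and restrains NF-kB signalling. It was at 62.3 ± 2.17 CPM in the controls and 25.3 ± 0.548 CPM with CBX7 (a fall with log2 fold change -1.30, adjusted p = 1.49e-06). KHNYN, a cofactor of the antiviral protein ZAP, fell with -0.41 (adjusted p = 0.00992) but lost its call without CBX7 library 1 (0.0564) or CBX7 library 2 (0.112). The other 3 tested relatives (NYNRIN, ZC3H12B and ZC3H12D), at under 1 CPM in both groups, were not called, and BTG4 had too few counts to be tested.

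Of 16 kinases, phosphatases, adaptors and proteases that act on the members, TBK1 was the 1 gene called (73.0 ± 7.85 to 47.1 ± 0.665 CPM, adjusted p = 0.00117). The list median was -0.016, and 24.4% of all tested genes were called. Of 13 BTG/TOB partners and G1 regulators, 7 were lower and 6 not called (median log2 fold change -0.36), where 13.9% of all tested genes were lower. MDM2, a ubiquitin ligase, and CDKN1A, a cyclin-dependent kinase inhibitor, fell from 159 ± 34.0 to 52.3 ± 4.81 CPM and from 107 ± 10.1 to 58.3 ± 2.31 CPM. Their adjusted p were 2.00e-06 and 6.12e-05. SMAD1, a BMP mediator, and FOXO1 fell with log2 fold changes of -0.75 each, FOXO1 losing its call without CBX7 library 2 (adjusted p = 0.0728). The number lower was 4 without control library 1 and 3 without CBX7 library 2.

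**Figure D4:**
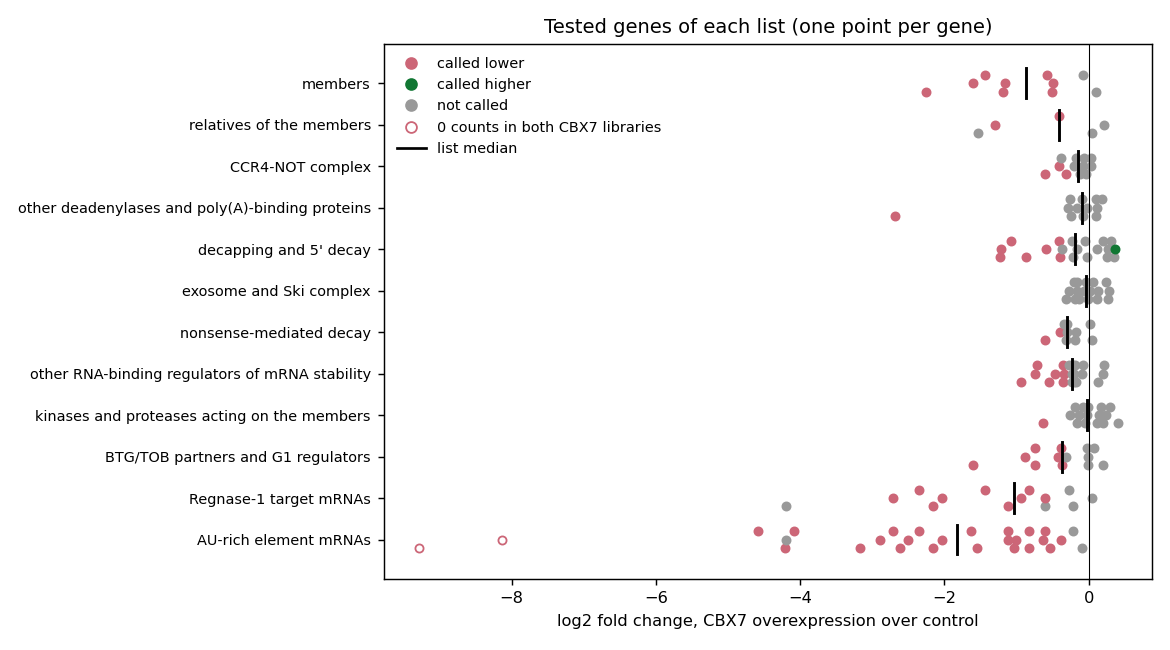
Log2 fold change of each tested gene (points) in the members and 11 related lists, with list medians as black bars; open points had 0 counts in both CBX7 libraries, where the fitted size depends on the prior count. The AU-rich element list has the lowest median (-1.83), and the exosome list is centred near 0 (-0.038).

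Most of the messenger RNAs listed for AU-rich elements or as Regnase-1 targets were lower along with the members. These lists were written from general knowledge, and whether the proteins act on these mRNAs in these cells was not tested. Of 28 mRNAs listed for AU-rich elements, 25 fell, none rose and 3 were not called, with a median log2 fold change of -1.83. Of all tested genes, 13.9% were lower. This list and the Regnase-1 list, like the members and every other list here, were chosen with earlier results of these data known. IRF1, an interferon regulatory factor, fell from 375 ± 41.2 to 22.2 ± 0.337 CPM, and TNFAIP3, a brake on NF-kB, from 123 ± 7.43 to 6.67 ± 0.145 CPM. The chemokines CXCL8 and CXCL2 fell from 227 ± 27.8 to 30.7 ± 0.894 CPM and from 106 ± 1.21 to 16.1 ± 1.47 CPM. TNF, the classic ZFP36 target, had 92 and 53 counts in the controls and 0 in both CBX7 libraries, and was named after its values were seen. Calls were lost for IL1B without control library 1 (adjusted p = 0.0709), for CSF2 without control library 2 (0.103), and for CCND1 without control library 1 or CBX7 library 2 (0.0602 and 0.0681). Of 14 listed Regnase-1 targets, ZC3H12A itself included and 8 of them also in the AU-rich list, 9 fell and 5 were not called (median log2 fold change -1.03). CXCL2, CXCL3, CXCL1 and NFKBIZ had the smallest p, with log2 fold changes of -2.72, -2.16, -2.03 and -2.35. TFRC, the transferrin receptor, was at 598 ± 41.5 and 619 ± 45.7 CPM (adjusted p = 0.781; named after its values were seen). Many of these mRNAs are also transcribed by NF-kB, and transcription and decay cannot be told apart in these steady-state levels.

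The 9-base element was also counted over all genes, in 1 transcript per gene, so genes without it may hold it in another transcript. In the 28 listed mRNAs, 13 of 15 with the element in the 3' UTR were lower, as were 12 of 13 without it. Of the 1199 tested genes with at least 1 copy, 19.6% were lower and 9.42% higher, with a median log2 fold change of -0.070. Of the 13169 genes without it, 14.5% were lower and 12.04% higher, with a median of 0.016. Their 3' UTRs differed in length, with medians of 2848 and 946 bases. Among 3' UTRs of 575 to 1778 bases, the middle of 3 length classes of near-equal size, 22.7% of 295 genes with the element and 15.2% of 4498 without it were lower. In the longest class the shares were 18.8% and 17.3%, and in the shortest, with 73 genes holding the element, 16.4% and 11.5%. Genes are not independent replicates, so these shares are descriptions without a test.

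**Figure D5:**
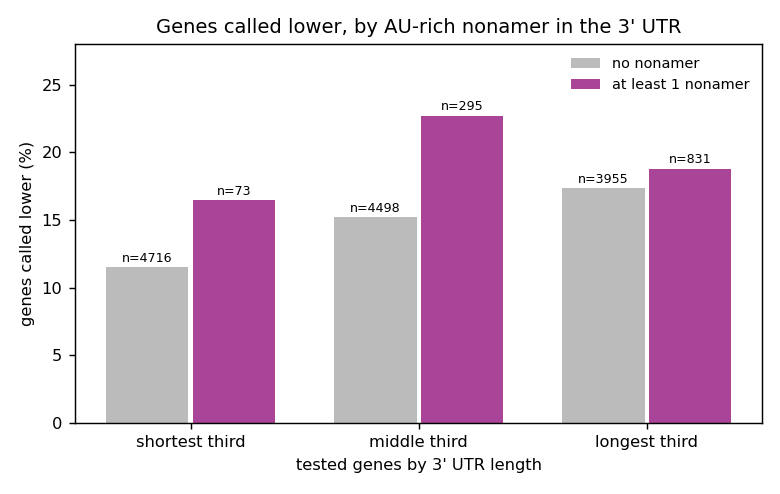
Percentage of tested genes called lower (bars, from 0) with and without the 9-base AU-rich element, within 3 classes of 3' UTR length; n is the number of genes per bar. The gap between the bars is widest in the middle class (22.7% against 15.2%) and narrowest in the longest (18.8% against 17.3%).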

How the data were processed

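RNA sequencing libraries of A549 cells (2 control, 2 CBX7 overexpression) were grouped by their titles. The deposited table holds whole numbers, treated here as estimated counts per gene; the authors' tools, per the submitters' processing notes, were HISAT2 2.2.1, StringTie 2.2.1 and DESeq2 with build hg38, without stated roles. The annotation, strandedness and treatment of shared reads were not given in the sources used here. An estimated count can be 0 through a failed estimate.

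Genes kept by filterByExpr were scaled with TMM and tested with edgeR 4.0.16 (R 4.3.3; robust quasi-likelihood fit, group as the only term, Benjamini-Hochberg adjustment over all tested genes). Standard errors were the log2 fold change divided by the root of F. The test was checked on simulated counts. CPM divides counts by the library total times its TMM factor. Depth was 69877585 to 90765502 counts; 3 counts correspond to 0.0320 to 0.0440 CPM. Alternatives were other scalings and filters, DESeq2 1.42.0, limma-voom (limma 3.58.1), each library left out and a replicate block.

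Members and gene lists were chosen with earlier results of these data known. All members are named; each list names up to 4 called genes with the smallest p, others being identified as chosen afterwards. Neighbouring genes were the nearest tested protein-coding RefSeq genes; likeness was taken for the 2 members with the smallest p, over genes with a mean count of 50 or more, on log2(CPM + 0.5). The 3' UTR came from 1 APPRIS-preferred GENCODE transcript per gene. Mitochondrially encoded genes were not analysed here, and a few listed genes are not reported here.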

Additional observations from a re-analysis of the deposited data

How the results depend on the processing

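Of the 8 members called lower, 8 were lower under each of 7 other analyses (RLE factors, library totals, no low-count filter, a mean count of 50 or more, DESeq2, limma-voom and the replicate block), and 6 to 8 with 1 library left out; none was higher in any. Log2 fold changes over the 11 alternatives ran from -2.36 to -2.12 for BTG2, -1.71 to -1.49 for ZFP36 and -1.45 to -0.84 for ZC3H12C. Those of TOB1 stayed uncalled at 0.0042 to 0.23 and those of ZFP36L2 at -0.13 to -0.015.

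Counts in the wider lists moved more. With library totals, 1 CCR4-NOT gene was lower, 4 decapping genes higher, 1 exosome gene higher, 1 nonsense-mediated decay gene lower, 5 RNA-binding regulators lower and 1 kinase-list gene higher. With no low-count filter, 3 decapping genes and 1 kinase-list gene were higher. At a mean count of 50 or more, 2 other deadenylase genes were lower, 3 decapping genes higher, 1 exosome gene lower, 5 nonsense-mediated decay genes lower and 1 kinase-list gene higher. With DESeq2 these were 2, 3, 1, 4 and 1. With limma-voom, 2 other deadenylase genes were lower and 3 decapping genes higher. With the replicate block, 2 other deadenylase genes were lower, 3 decapping genes higher, 1 exosome gene lower, 5 nonsense-mediated decay genes lower and 1 kinase-list gene higher. The causes of these shifts were not tested.

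With 1 library left out, in a fit where a lone library is assumed to vary like the other group, 1021 to 1819 of all tested genes were higher (1809 with all 4; 1021 without CBX7 library 1 and 1136 without CBX7 library 2). Ranges of list counts were 1 to 2 relatives lower, 1 to 3 CCR4-NOT genes lower, 1 to 4 other deadenylase genes lower, 0 to 2 decapping genes higher and 4 to 6 lower, 0 to 1 exosome genes lower, 1 to 4 nonsense-mediated decay genes lower, 4 to 10 RNA-binding regulators lower, 0 to 1 kinase-list genes higher and 1 to 2 lower, and 0 to 1 BTG/TOB partner genes higher and 3 to 8 lower. Titles give both groups the replicate numbers 1 and 2, but nothing shows that these pair the samples; the deviations of same-numbered libraries correlated with r = 0.108 across genes. With 2 libraries per group, precision for genes with as many counts as the members rests on the spread between libraries. The fit estimates that spread partly from the other tested genes.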

Other observations

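In the same transcripts, the shorter 7-base AU-rich core TATTTAT was found at 3 copies in each of ZFP36, ZFP36L1 and ZFP36L2 and at 2 copies in BTG3. It was found at 1 copy in BTG1, BTG2 and TOB2, and at 0 copies in TOB1, ZC3H12A and the 197 bases searched for ZC3H12C. Over all tested genes with a 3' UTR, 13.1% of those with 0 copies were lower, 17.2% of those with 1, 22.0% of those with 2 and 20.5% of those with 3 or more. Median 3' UTR lengths over the same classes were 684.5 to 4347 bases, so copy number and length moved together. XRN1, with 3 copies, fell with a log2 fold change of -1.22, while TTC37, a Ski complex subunit also with 3 copies, was not called (0.064).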
